A study of Mus musculus with 8 samples.

Results

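The gut hormone genes described here are Chga, Chgb, Gcg, Cck, Sct, Pyy, Gip, Sst, Nts and Tac1, 10 of the 32287 features counted in all 8 libraries. They were chosen by symbol. In the RefSeq annotation of GRCm38.p6, the build that mm10 is made from, the genes lie at chr12:102554941-102565027 (Chga), chr2:132781642-132795079 (Chgb), chr2:62474530-62483653 (Gcg), chr9:121489824-121495694 (Cck), chr7:141278329-141279174 (Sct), chr11:102106676-102107832 (Pyy), chr11:96024532-96030831 (Gip), chr16:23889573-23891342 (Sst), chr10:102481756-102490418 (Nts) and chr6:7555061-7562978 (Tac1). The series holds 4 single-cell libraries and 4 Visium sections of mouse intestine. Small and large intestine of C57BL/6 mice and of Lgr5-eGFP-ires-CreERT2 mice on the same background were digested separately, and live cells were sorted with enrichment for LGR5+ stem cells and for CD31+ PDPN+ LYVE1+ lymphatic endothelial cells, so cell shares describe each sorted library and not the tissue. Small intestinal organoids at passage 1 were grown alone (CTRL) or in coculture (COCULTURE) with a partner that the labels do not name. In each arm 16 wells were pooled and 100000 epithelial cells were sorted, and the arms were submitted together. Visium, which counts RNA in spots that each cover several cells, was run on cryosections 10 µm thick from either tissue, as a technical duplicate for each, from C57BL/6 mice titled WT (wild type). The labels give no age, sex or number of animals.

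Enteroendocrine cells are rare epithelial cells that release peptide hormones and serotonin when the gut content changes. They arise from crypt stem cells through the transcription factors Neurog3 and Neurod1, pack their products into dense granules with the granins chromogranin A (Chga) and chromogranin B (Chgb), and were long named after a main product. L cells make proglucagon (Gcg, the precursor of GLP-1) and peptide YY (Pyy), which slow gut transit and curb appetite, K cells make the incretin GIP (Gip), I cells cholecystokinin (Cck), which contracts the gallbladder, S cells secretin (Sct), which stimulates bicarbonate secretion, N cells neurotensin (Nts) and D cells somatostatin (Sst), which inhibits other hormones. Enterochromaffin cells make serotonin with the enzyme encoded by Tph1 and often tachykinin (Tac1, the precursor of substance P). Tac1 and Sst are also made by enteric neurons.

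The 250 bases before the annotated start of 6 members are shown because the cells below carried Chga, Chgb and Tac1 together, and Gcg and Pyy together, and because Sst was read both in single endocrine cells and in spots with neuronal RNA. Sequences are RefSeq's, build GRCm38.p6, read 5′ to 3′ on the gene's strand, at chr12:102554691-102554940 (plus strand) for Chga, chr2:132781392-132781641 (plus) for Chgb, chr6:7554811-7555060 (plus) for Tac1, chr16:23890845-23891094 (minus) for Sst, chr2:62483654-62483903 (minus) for Gcg and chr11:102107833-102108082 (minus) for the first of the Pyy entries. The table's Sst entry starts at base 23890844, inside the gene span given above, so its window lies within that span. Capitals mark TGACG or its reverse complement CGTCA, the core of the cAMP response element TGACGTCA, and TATAAA or its reverse complement TTTATA.
Chga: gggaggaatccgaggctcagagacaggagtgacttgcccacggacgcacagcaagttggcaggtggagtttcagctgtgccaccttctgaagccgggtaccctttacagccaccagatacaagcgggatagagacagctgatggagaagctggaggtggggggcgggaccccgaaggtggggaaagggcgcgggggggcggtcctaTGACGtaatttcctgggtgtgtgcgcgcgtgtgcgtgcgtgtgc
Chgb: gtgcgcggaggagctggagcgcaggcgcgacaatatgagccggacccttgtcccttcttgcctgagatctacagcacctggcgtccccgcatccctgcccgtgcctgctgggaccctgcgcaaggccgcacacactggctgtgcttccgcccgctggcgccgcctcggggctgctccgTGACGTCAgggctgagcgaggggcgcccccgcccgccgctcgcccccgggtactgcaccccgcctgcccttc
Tac1: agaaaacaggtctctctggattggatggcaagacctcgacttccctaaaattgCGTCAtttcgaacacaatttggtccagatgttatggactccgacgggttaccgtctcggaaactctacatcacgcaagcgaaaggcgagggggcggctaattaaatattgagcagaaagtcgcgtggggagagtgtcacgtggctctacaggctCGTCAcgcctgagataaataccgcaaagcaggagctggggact
Sst: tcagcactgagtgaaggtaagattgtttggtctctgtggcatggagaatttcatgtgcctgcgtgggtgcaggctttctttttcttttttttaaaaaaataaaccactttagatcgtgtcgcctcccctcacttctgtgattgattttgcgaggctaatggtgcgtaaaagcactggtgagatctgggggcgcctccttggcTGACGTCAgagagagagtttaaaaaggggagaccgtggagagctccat
Gcg: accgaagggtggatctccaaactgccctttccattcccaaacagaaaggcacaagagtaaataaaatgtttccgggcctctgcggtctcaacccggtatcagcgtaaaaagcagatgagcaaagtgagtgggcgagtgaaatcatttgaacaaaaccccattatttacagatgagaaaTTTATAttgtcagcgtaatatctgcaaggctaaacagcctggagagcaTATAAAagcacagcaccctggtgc
Pyy: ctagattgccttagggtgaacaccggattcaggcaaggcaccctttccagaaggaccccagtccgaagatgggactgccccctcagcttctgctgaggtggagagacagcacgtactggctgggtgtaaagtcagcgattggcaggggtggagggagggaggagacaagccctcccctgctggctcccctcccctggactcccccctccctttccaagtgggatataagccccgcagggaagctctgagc

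All 10 members matched the promoter table, with 11 entries because Pyy has a pair of starts. Searched on both strands, the whole cAMP response element TGACGTCA was present in Chgb, 72 to 65 bases before the start, and in Sst, 48 to 41 bases before it, against 1.55% of the 32851 promoter entries of the same length. The shorter TGACG, which the 8-base element contains, was present in 6 members (Chga, Chgb, Cck, Sst, Nts and Tac1) and in 17.8% of all entries. It began 44 bases before the start in Chga and ended 39 bases before it in Tac1. TATAAA was present in Gcg, 24 to 19 bases before the start, and in Sct, and in 12.4% of all entries. The E-box CANNTG was present in all 10 members and in 66.2% of entries, and its form CAGGTG in Chga, Chgb and Cck and in 17.2%. These matches describe letters in the window and no binding was measured.

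The single-cell libraries held 8842 barcodes from small intestine, 8646 from large intestine, 818 from control and 1233 from cocultured organoids, with 78482770, 142501907, 46236011 and 100452728 UMIs (unique molecular identifiers, each standing for 1 captured RNA molecule). After removal of cells with under 500 genes or over 20% mitochondrial UMIs and of called doublets, 2695, 5882, 538 and 1028 cells were left. The mitochondrial limit took 5497 barcodes from the small intestine and 2060 from the large intestine. Barcodes shared by the tissue libraries numbered 25, of which 2 were kept in both and none was an endocrine cell, and the organoid libraries shared none. The Visium sections held 24356162 and 30091604 UMIs (small intestine) and 41257593 and 43833127 (large intestine). Each single-cell group is 1 library and the sections are technical duplicates, so intervals below are exact 95% intervals that cover counting error only, and no test between animals was possible.

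Cells were clustered without the 10 members, and clusters were called enteroendocrine-like from 18 other markers such as Neurod1, Insm1 and Scg3. This gave 32 cells in the small intestine, 1.19% of those kept (interval 0.814% to 1.67%), 50 in the large intestine (0.85%, 0.632% to 1.12%), 5 in control organoids (0.929%, 0.302% to 2.16%) and 22 in cocultured organoids (2.14%, 1.35% to 3.22%). Median UMIs per cell were 12891, 15130.5, 35368 and 32916. At least 4 of the 18 markers were detected in 31 of the 32 cells of the small intestine, in all organoid cells and in 41 of the 50 of the large intestine. Neurod1 was detected in 30 of 32 and 36 of 50 tissue cells, against 0.338% and 0.257% of other cells. The large intestinal cluster thus included 9 cells with under 4 of the markers. Without them, the share of its cells with 2 or more hormones, given below, was 26.8%.

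A cell is called a carrier of a gene here when it held at least 3 UMIs of it and these were at least 0.1% of its UMIs, which keeps out single molecules of free RNA. Chgb was the most widely carried member in the small intestine and Chga in the large intestine and in coculture. In the small intestine 15 of 32 cells carried Chga and 26 carried Chgb, in the large intestine 29 and 24 of 50, in control organoids 3 and 4 of 5, and in cocultured organoids 18 and 17 of 22. Either granin was carried by 28 of 32, 30 of 50, 5 of 5 and 21 of 22 cells, and both by 13, 23, 2 and 14. In the small intestine Chgb was thus carried by 13 cells that did not carry Chga, while 23 of the 24 Chgb carriers of the large intestine also carried Chga.

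Of the 8 hormone genes other than granins, Sct was carried by the most cells in the small intestine (20 of 32), ahead of Cck (9), Gip (8), Gcg, Pyy and Tac1 (6 each), Sst (2) and Nts (2). Carriers in the large intestine were 13 for Sct, 11 for Tac1, 10 for Pyy, 9 for Gcg, 4 for Cck, 3 for Nts, 2 for Sst and none of 50 for Gip (interval 0% to 7.11%). The 9 cells with under 4 markers, which held 21.3% of the UMIs of these 50 cells, included 2 of the Sct carriers and 1 each of the Tac1, Chga and Chgb carriers. The number of Sct carriers there ranged from 7 to 36 over the alternatives. In cocultured organoids 15 of 22 cells carried Sct, 5 Cck, 4 Tac1, 2 Gcg, 1 Gip and 1 Nts, and none Pyy or Sst. The 5 control organoid cells gave 3 carriers of Sct, 2 each of Cck and Tac1 and 1 of Gip. No organoid endocrine-like cell that was kept carried Pyy or Sst. Outside the class 1 control cell carried Pyy, with 32 UMIs, and with doublets kept 1 cocultured endocrine-like cell carried Gcg and Pyy together.

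**Figure D1:**
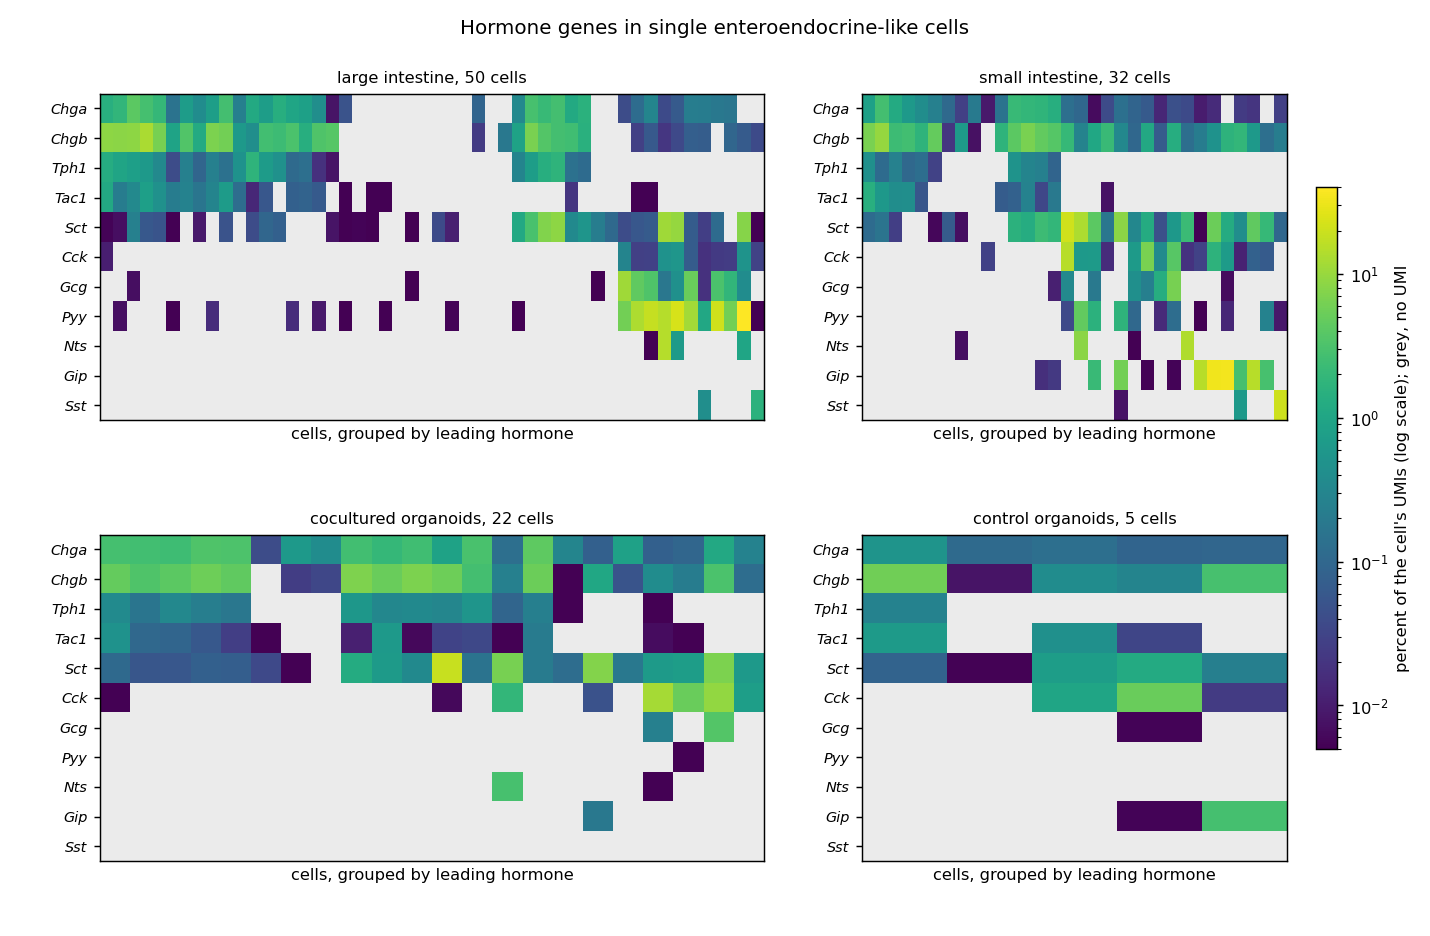
Each column is 1 enteroendocrine-like cell and each row a gene, with Tph1 added as the serotonin enzyme. Colour gives the percent of the cell's UMIs on a log scale and grey no UMI. Cells with Chga, Chgb, Tph1 and Tac1 form one block and cells with Gcg and Pyy another in the large intestine, and none of its 50 cells has a Gip UMI.

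Several hormones in 1 cell were common in the small intestine. Of its 32 cells, 18 carried 2 or more of the 8 hormones (56.3%, 37.7% to 73.6%) and 11 carried 3 or more, against 11 of 50 (22%, 11.5% to 36.0%) and 5 in the large intestine and 9 of 22 (40.9%) and 3 in cocultured organoids. In control organoids 3 of 5 cells carried 2 or more. The highest number was 5, in 1 cell of the small intestine (Gcg, Cck, Sct, Pyy and Gip, with 29, 100, 626, 244 and 337 UMIs) and in 3 cells of the large intestine, which all carried Gcg, Cck, Sct, Pyy and Nts. None of the 8 hormones was carried by 7, 20, 1 and 6 cells in the same order of libraries as above (tissue first, then control and coculture). No member at all, granins included, was carried by 1, 13, 0 and 1 cells in that order. Of the 13 in the large intestine, 6 were among the 9 cells with under 4 markers. All 13 count in the shares given here and in the CPM of endocrine-like cells below. The share with 2 or more hormones depended on what counts as carrying: with a single UMI enough it was 78.1% in the small and 64% in the large intestine, and with 1% of the cell's UMIs required it was 34.4% and 18%.

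Within a cell 1 product usually led. Over cells that carried any hormone, the leading one supplied a median of 82.6% of a cell's hormone UMIs in small intestinal cells, 94.3% in large intestinal and 84.3% in cocultured organoid cells (UMIs are compared here with no correction for transcript length). The leading gene in the small intestine was Sct in 9 cells, Gip in 6, Tac1 in 4, Gcg and Cck in 2 each and Sst and Nts in 1 each, and never Pyy. For the large intestine it was Tac1 in 11, Pyy in 9, Sct in 8 and Gcg and Sst in 1 each. In coculture it was Sct in 10, Cck in 4 and Tac1 in 2. A cell counted there for Sct was tied, with 21 Sct and 21 Tac1 UMIs. Together the 10 members made up a median of 8.41% of a cell's UMIs in the small intestine, with a range of 0.0373% to 40.5%, and of 3.70% in the large intestine, with a highest value of 52.9%.

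Tac1 was carried with the granins, the enterochromaffin combination. At the carrier limit used here all Tac1 carriers held both granins, 6 of 6 in the small intestine, 11 of 11 in the large intestine and 23 of 23 over all 4 libraries. Tph1 was carried by 4 of 6, 9 of 11 and 18 of 23 of them. In the reverse direction, all 39 Tph1 carriers held both granins. No Tac1 carrier of tissue carried Gcg, Pyy or Cck, and 1 of 23 over all libraries carried Cck, a control organoid cell with 580 Cck and 264 Tac1 UMIs. The Tac1 carriers of the small intestine held 240, 68, 22, 17, 16 and 4 Tac1 UMIs, so the last of them rests on few molecules. With other limits and choices of cells, Tac1 carriers numbered 1 to 11 in the small and 1 to 22 in the large intestine. With 1 UMI enough, 9 large intestinal cells held both Tac1 and Pyy and 3 both Tac1 and Gcg. The cell with most Tac1 in the small intestine held 1068 Chgb, 136 Chga, 240 Tac1 and 76 Tph1 UMIs. Its counterpart in the large intestine held 1594 Chgb, 267 Chga, 209 Tac1 and 239 Tph1 UMIs.

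The L-cell pair Gcg and Pyy was carried together in the large intestine. All 9 Gcg carriers there carried Pyy, and 9 of 10 Pyy carriers carried Gcg. None of the 10 Pyy carriers carried Chgb or Tph1, while 6 carried Chga. Cells differed in the balance of the pair, from 1478 Gcg and 4374 Pyy UMIs or 814 and 4477 in cells led by Pyy to 2434 and 1314 in the cell led by Gcg. All 4 Cck carriers of the large intestine carried Gcg and Pyy, and all 3 Nts carriers carried Gcg, Cck, Sct and Pyy as well, of which the cell with most neurotensin held 3579 Nts, 3614 Pyy, 2741 Sct, 117 Cck and 43 Gcg UMIs.

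In the small intestine Gcg was carried together with Cck. All 6 Gcg carriers carried Cck, 5 carried Sct and 3 carried Pyy. A cell of this kind held 1152 Gcg, 693 Cck and 109 Sct UMIs with 22 of Pyy, and another 831 Gcg and 223 Cck with 9 of Pyy. All 6 Pyy carriers and 8 of 9 Cck carriers carried Sct. The Cck carrier with most secretin held 6200 Sct, 4525 Cck and 104 Gcg UMIs.

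Gip carriers, found in tissue in the small intestine alone, held Sct in 7 of 8 cells, Chgb in 7, Cck and Pyy in 3 each and Gcg and Chga in 1 each. Their Gip UMIs were 6662, 5194, 3118, 762, 762, 337, 235 and 45. The cell with 6662 also held 1071 Sct and 331 Cck UMIs, and its members made up 40.5% of its RNA. The cell with 3118 held 1 Sct and 6 Cck UMIs and carried no other of the 8 hormones. Ghrelin (Ghrl) and Insl5 were not among the genes counted per cell.

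Somatostatin rested on very few cells. In the small intestine 1 cell held 2217 of 2271 Sst UMIs with no other hormone carried, and the other carrier held 53 Sst beside 235 Gip UMIs. Carriers in the large intestine held 382 of 429 UMIs and 47, the latter with 120 of Pyy. The organoids gave 2 Sst UMIs in coculture and 3 in control among all kept cells.

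**Figure D2:**
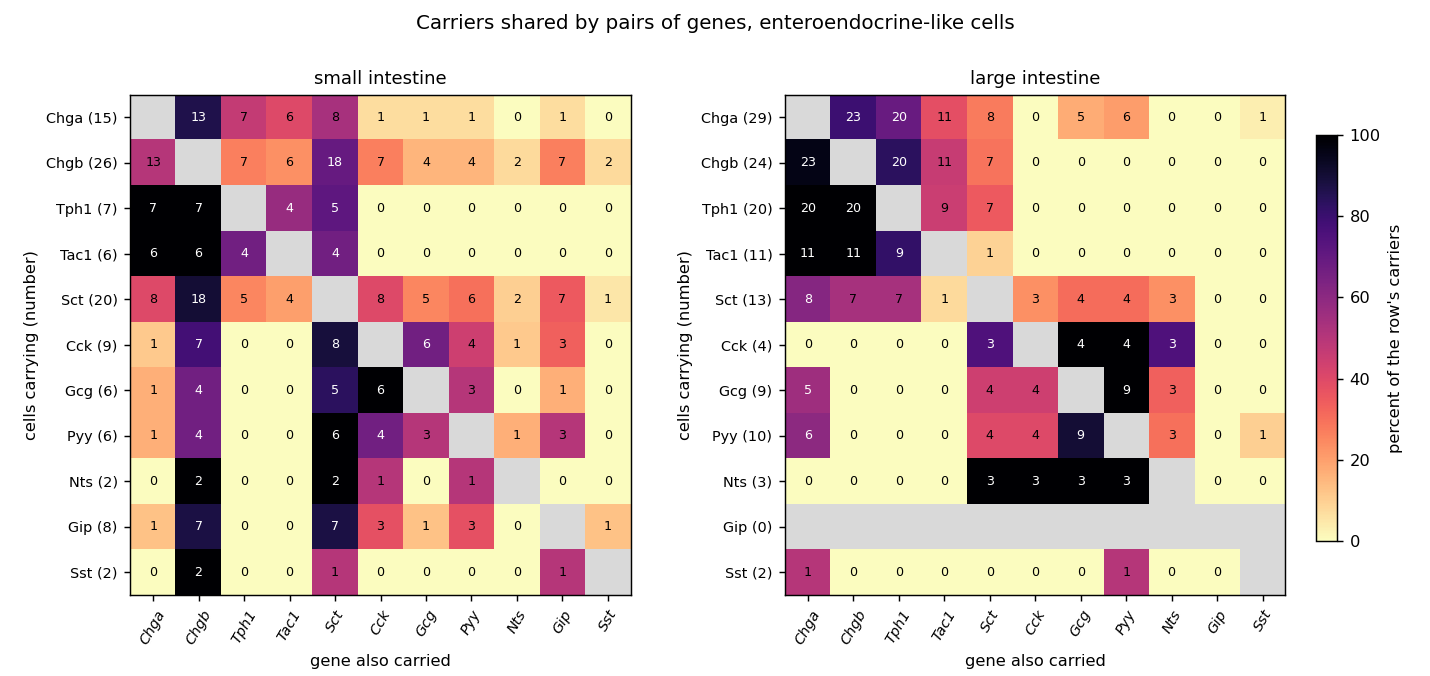
Rows give the gene carried, with its number of carrier cells in brackets, and columns the gene also carried. Numbers in the squares are cells and colour is the percent of the row's carriers, and grey rows have no carrier. In both tissues the Tac1 and Tph1 rows are full under Chga and Chgb and empty under Gcg and Pyy, whereas the Gcg row is full under Cck in the small intestine (6 of 6) and under Pyy in the large intestine (9 of 9).

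Genes most like a member over the endocrine-like cells were found by Pearson's r of log(1 + UMIs per 10000), for members with at least 10 carriers, as a description only, since these cells share a library and differ in depth. Tph1 was nearest or second nearest to Chga in both tissues, with r = 0.87 over 32 cells of the small intestine and 0.84 over 50 of the large intestine. Chga was also near Tac1 (0.80) in the small intestine and near Chgb (0.86) and the synaptic fusion gene Snap25 (0.81) in the large intestine. Chgb was nearest to Map1b (0.69) and Scn3a (0.68) in the small intestine. Pyy was nearest to Gcg (0.93), Etv1 (0.90) and Cck (0.86) in the large intestine. The genes nearest to Sct were Myl7 (0.74), Amn (0.73) and Eps8l3 (0.72) in the small intestine and Slc15a1 (0.69), which encodes a peptide transporter, Resp18 (0.66) and Parm1 (0.65) in the large intestine. Tac1 in the large intestine was nearest to Nt5dc2 (0.79), Rab3c (0.75) and Atf6 (0.72).

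Between the tissues, the endocrine-like cells differed most in Gip, Cck, Sct, Sst and Pyy. Levels are CPM, counts scaled to library depth, over the summed UMIs of all endocrine-like cells of a library. Gip was 38924 CPM in the small intestine (17120 UMIs) and had no UMI in the large intestine. It was 10901-fold higher when the 0 is set to 3 counts over the group (log2 13.41, with a lower limit of 13.11). Over the alternatives its log2 ratio was 12.37 to 14.70. Cck was 17016 against 409 CPM, a 41.6-fold difference (log2 5.38, 5.22 to 5.54), and 4.40 to 6.66 on the log2 scale over the alternatives. Sct was 29757 against 7422 CPM, 4.01-fold higher in the small intestine (log2 interval 1.96 to 2.05), with a range of 1.16 to 3.28 on the log2 scale over the alternatives. In the small intestine 1 cell held 4525 of the 7484 Cck UMIs and 6200 of the 13088 Sct UMIs. Pyy was the reverse, 3108 CPM in the small against 26925 in the large intestine, 8.66-fold higher in the latter (log2 -3.11, from -4.15 to -1.83 over the alternatives). Sst was 5163 against 511 CPM (log2 3.34), but with 2 carriers in each tissue. Without the top cell of each library the Sst difference fell to 1.13.

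The other members differed by less than 2-fold. Chga was 2983 in the small and 4330 CPM in the large intestine (log2 -0.54), Chgb 16165 and 13763 (0.23), Gcg 5138 and 7043 (-0.45), Nts 5172 and 4446 (0.22) and Tac1 871 and 894 (-0.04, -0.22 to 0.14). Of 3735 Nts UMIs in the large intestine, 3579 came from 1 cell, and without the top cell of each library the Nts difference was 3.20. These 5 ratios turned direction with how cells were chosen, over a range of -1.47 to 0.75 for Chga, -0.69 to 1.52 for Chgb, -2.13 to 0.83 for Gcg, -1.38 to 3.20 for Nts and -0.99 to 1.19 for Tac1, so no direction is given for them. In all, 4 members were at least 2-fold higher in the small intestine with 20 or more UMIs, where 8.75% of 5943 genes were, and 1 in the large intestine, where 11.3% were. The median log2 ratio was 0.23 over the members and -0.07 over all these genes.

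In all kept cells, where the number of endocrine cells in the sort also counts, the same 5 members differed in the same direction. Cck was 147 against 3.07 CPM (log2 5.58), Sst 45.1 against 3.56 (3.66), Sct 321 against 147 (1.13), Pyy 26.9 against 189 (-2.81) and Gip 337 CPM against no UMI. Tac1 joined those higher in the large intestine, 7.86 against 34.4 CPM (-2.13). Chga (33.9 and 31.7), Chgb (139 and 98.2), Gcg (44.4 and 49.2) and Nts (45.9 and 31.4 CPM) stayed within 2-fold. Without the top cell of each library the Sct ratio was 0.69, under 2-fold, and the Nts ratio 2.71, since 1 large intestinal cell held 3579 of 3894 Nts UMIs. With all cells in, there were thus 4 members at least 2-fold higher in the small intestine, against 11% of 16716 genes, and 2 in the large intestine, against 13.3%. The median was 0.52 over the members and -0.19 over all genes.

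**Figure D3:**
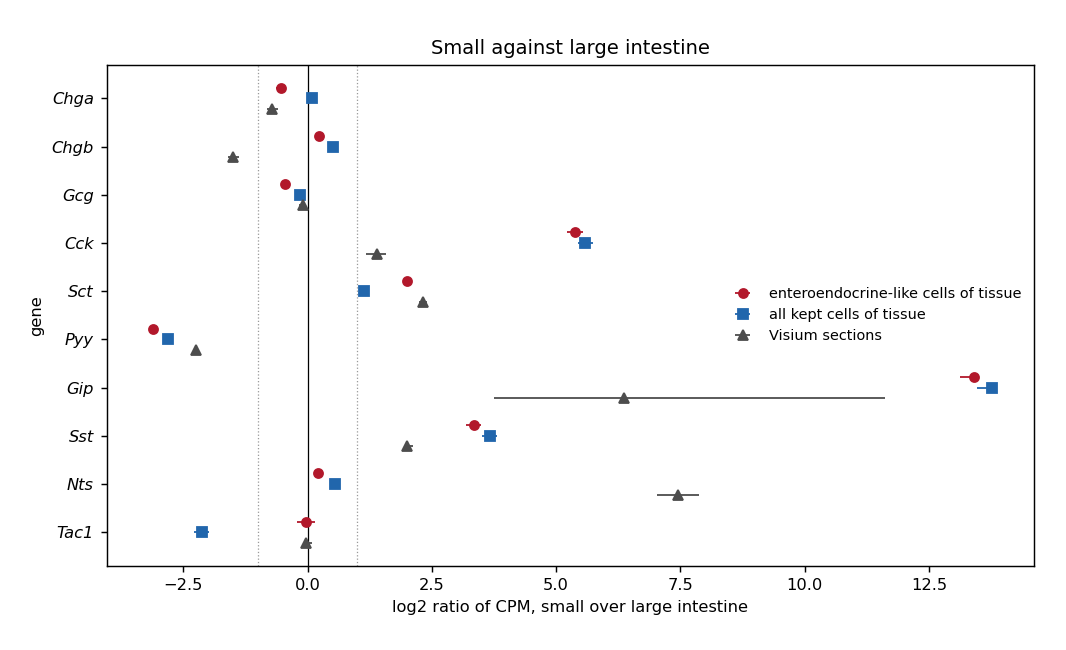
Points are log2 ratios of CPM, small over large intestine, in enteroendocrine-like cells (circles), all kept cells (squares) and Visium sections (triangles), with exact 95% counting intervals as bars and dotted lines at 2-fold. The single-cell points for Gip are lower bounds, because the large intestine had no UMI. Cck, Sct, Gip and Sst lie to the right and Pyy to the left in all 3 data sets, while Tac1, Nts and Chgb shift between them.

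Tac1 was read in large intestinal epithelium outside the endocrine class. Endocrine-like cells held 93.4% of Tac1 UMIs in the small intestine and 17.6% in the large intestine. Colonocyte-like cells of the large intestine, with St8sia5, Fxyd4 and Trpv6 among their leading genes, held 147 CPM of Tac1 (137 to 157), with a UMI in 96 of 216 cells, a highest value of 72 UMIs in a cell and 5 carriers. Cycling cells held 39.2, goblet-like cells 25.4, stem-like cells 12.6 and deep crypt secretory-like cells 11.9 CPM. After each cell was thinned to 2000 UMIs, 14.8% of 189 colonocyte-like cells had a Tac1 UMI, and none of 107 B-like and 287 plasma-like cells did, which should lack the gene. Small intestinal tissue had 2 of 280 enterocyte-like cells with a Tac1 UMI.

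Sct was likewise not limited to endocrine-like cells, which held 78.2% of its UMIs in the small and 34.3% in the large intestine, with 24 and 118 carriers outside the class. Goblet-like cells held 505 CPM in the small intestine (71 cells, 54 with a UMI) and 534 in the large intestine (213 cells, 67 with a UMI). In the large intestine deep crypt secretory-like cells held 343 CPM, most of it in a cluster led by Lhx3, Tff2, Reg4 and Retnlb with 1148 CPM, a UMI in 170 of 178 cells and 67 carriers. A cluster of 83 cycling cells there held 410 CPM, with a UMI in 56. In the small intestine an unnamed cluster of 153 cells with Retnlb, Agr2 and Mptx1 among its leading genes held 460 CPM, with a UMI in 142 cells. Tuft-like cells, which sense luminal contents, held 239 CPM in the small and 87.0 in the large intestine.

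Shares of cells with Sct were also taken at equal depth. Thinned to 2000 UMIs, 73.3% of 30 endocrine-like, 42.2% of 64 goblet-like and 31.3% of 99 tuft-like cells of the small intestine had a Sct UMI, against 1.47% of 273 B-like cells. Large intestinal shares were 25 of 49 cells for the endocrine-like class, 14.5% of 200 goblet-like, 19.7% of 76 tuft-like and 23.4% of 607 deep crypt secretory-like cells, against 3.74% of 107 B-like cells. The deep crypt secretory-like share averaged unlike clusters: 71.8% of 177 cells in the cluster led by Lhx3, above the endocrine-like share by value but with overlapping intervals (64.5% to 78.3% and 36.3% to 65.6%), and 3.49% of 430 in the other. In the cycling cluster with Sct it was 34.9% of 83, and in the unnamed cluster of the small intestine 43.3% of 150. Goblet-like and tuft-like shares lay above the B-like background in both tissues.

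**Figure D4:**
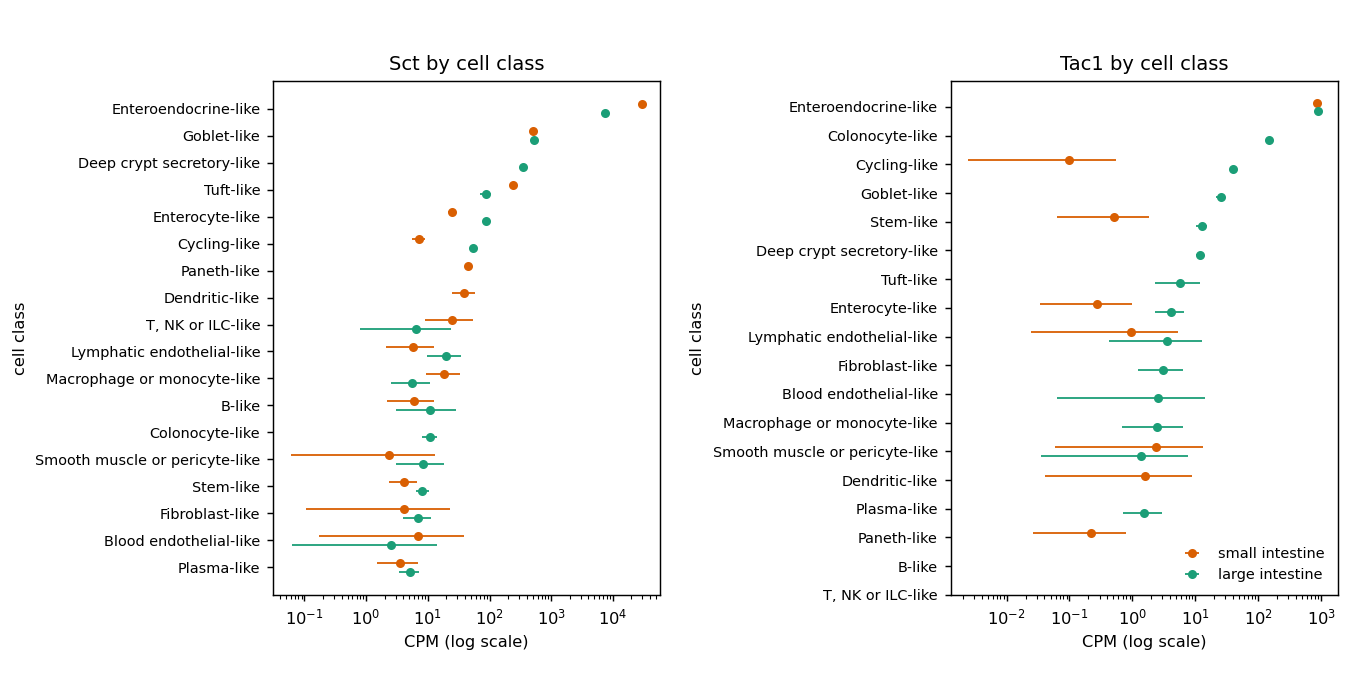
CPM of Sct and of Tac1 in each cell class of tissue with at least 20 cells, on a log scale with exact 95% counting intervals; a class with no UMI has no point, and classes whose leading genes did not match their name are not shown. Sct falls from endocrine-like (29757 and 7422 CPM) to goblet-like cells (505 and 534), and Tac1 has a second level in colonocyte-like cells of the large intestine (147 CPM).

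Nts and Chga showed smaller levels outside the class. Lymphatic endothelial-like cells of the large intestine, a sorted population, held 85.0 CPM of Nts (62.6 to 113), with a UMI in 20 of 205 cells and 2 carriers, against 9.60 CPM in the small intestine. At 2000 UMIs the shares were 10.4% of 115 and 2.64% of 227 cells (intervals 5.51% to 17.5% and 0.976% to 5.66%). Of the classes that should lack the gene, B-like cells had 1.87% of 107 in the large and 0.733% of 273 in the small intestine (0.227% to 6.59% and 0.0888% to 2.62%) and plasma-like cells of the large intestine 0.348% of 287. Both lymphatic intervals overlapped the B-like one of their tissue, so neither value can be told from that background. The large intestinal interval lay above the plasma-like one (up to 1.93%), a class given here for the large intestine alone. Enterocyte-like cells held Chga at 26.9 CPM in the small intestine and 30.7 in the large intestine, the latter with a UMI in 12 of 177 cells and 5 carriers. At 2000 UMIs 4.74% of 274 and 3.75% of 160 enterocyte-like cells had a Chga UMI, against 0.366% of 273 B-like cells of the small intestine and none of 107 of the large intestine. Pyy was read at 6.38 CPM in deep crypt secretory-like, 6.12 in goblet-like, 8.94 in tuft-like and 15.9 in lymphatic endothelial-like cells of the large intestine, with counting intervals that overlapped between these unrelated classes.

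Genes that belong to the endocrine programme differed between the tissues' endocrine-like cells as follows. Of 14 transcription factors of enteroendocrine fate, all with 20 or more UMIs in a tissue, 8 were at least 2-fold higher in the small intestine and none in the large intestine, with a median log2 ratio of 1.16. As given above, 8.75% and 11.3% of all genes were so, which holds for each list here. Over other choices of endocrine-like cells the count ran from 5 to 13 in the small intestine and was 0 in the large intestine throughout. Neurod1, a driver of endocrine differentiation, was 1087 against 377 CPM (log2 1.53), Isl1 452 against 188 (1.27) and Pax6 298 against 51.2 (2.54). The early fate gene Neurog3 was 0.40 and Insm1 -0.23, with ranges of 0.29 to 5.25 and -0.41 to 1.01 over the choices of cells. Neurod1, Pax6, Isl1, Insm1, Rfx6, Fev and Nkx2-2 of this list also served to name the clusters, and with cells of under 4 markers left out in both tissues 6 of the 14 were at least 2-fold higher in the small intestine, with a median of 0.81. Of 8 measured processing and granule genes, 2 were higher in the small intestine and none in the large intestine: the granin Scg2 at 1276 against 168 CPM (2.93) and the peptidase Cpe at 1041 against 443 (1.23). The precursor-cleaving Pcsk1 was 362 against 184 CPM (0.97), its inhibitor Pcsk1n 416 against 776 (-0.90, from -1.77 to 0.39 over the choices of cells) and the amidating enzyme Pam 336 against 324 (0.06). Cpe and Pcsk1n were among the genes of this list that also served to name the clusters. Over 9 other choices of cells, 1 granule gene was higher in the large intestine in 8, and 1 in place of 2 was higher in the small intestine in 5. Neurod1, Isl1 and Cpe were as low as 0.78, 0.73 and 0.27 under some choices of cells, while Pax6 stayed at 1.67 or more and Scg2 at 1.86 or more.

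Of 4 measured serotonin genes, Tph1 was higher in the large intestine, 448 against 1454 CPM (log2 -1.70, from -2.59 to -0.42 over the choices of cells), and the vesicular transporter Slc18a2 higher in the small intestine with 20 against 2 UMIs (4.26, 2.21 to 7.40). Of 3 other measured gut peptides, ghrelin (Ghrl), which stimulates appetite, was 7919 against 828 CPM (3.26) and Iapp 323 against 29.8 (3.44) in the small intestine. Insl5, a product of colonic L cells, had 1 UMI in the small and 6306 in the large intestine (log2 -11.69, -16.99 to -9.21). Of 7 measured sensors, 3 were higher in the small intestine, the fatty acid receptor Ffar1 (2.87), Trpa1 (43 UMIs against none) and Cnr1 (38 against none). The short-chain fatty acid receptor Ffar2 (-1.65, from -1.90 to -0.88) and Olfr78 (59 UMIs against none in the small intestine) were higher in the large intestine. Of the 19 hormone receptor genes in the files, Sstr1 alone reached 20 UMIs (1.17, and from 0.16 to 2.46).

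Organoids in coculture had more endocrine RNA of most kinds than control organoids, in 1 library each. In all kept cells Chga was 86.5 CPM in coculture and 7.67 in control (log2 3.49, 3.34 to 3.66), Chgb 165 and 56.1 (1.56), Cck 201 and 35.7 (2.49, from 1.23 to 3.76 over the alternatives) and Sct 170 and 25.6 (2.74). Endocrine-like cells numbered 22 of 1028 and 5 of 538, and their shares had overlapping intervals. Tac1 was lower in coculture, 385 UMIs against 515 (3.97 and 11.9 CPM, log2 -1.58). Of the 515, 264 and 235 were in 2 control cells, and with CPM averaged over cells the Tac1 ratio was -0.30.

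Single organoid cells held much of the RNA of several members. In control, 1 cell each held 183 of 332 Chga, 1981 of 2428 Chgb and 943 of 1547 Cck UMIs. Without the top cell of each library the Chgb ratio was 3.75. For Gcg the counts were 2748 UMIs in coculture and 1 in control (log2 10.26, 7.78 to 15.56), of which 2528 were in 1 cell that also held 6623 Cck and 4791 Sct. Without the top cells control had no Gcg UMI left, and with 3 counts set in its place the Gcg ratio was 5.03. Nts had 1151 UMIs against 18 (4.84), 1139 of them in 1 cell, and without the top cell of each library the ratio was -1.67. Pyy had 20 UMIs in coculture and 34 in control (-1.93), and 32 of the 34 were in 1 cell outside the endocrine class, so that without the top cells the ratio was 2.01. Gip had 84 and 156 UMIs (-2.06), of which 65 and 119 were in 1 endocrine cell each, and the ratio ran from -4.89 to 0.47 over the alternatives. In all, 6 of 9 members measured were at least 2-fold higher in coculture, where 2.73% of 13389 genes were, and 3 in control, where 4.17% were. The member median was 2.49 and that of all genes -0.10. Sst, at 2 and 3 UMIs, gave no ratio.

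In Visium sections, which are bulk-like in that fewer cells and less RNA per cell cannot be told apart, both sections of a tissue gave nearly the same levels for most members. Nts was the member most unlike between tissues, 108 and 96.3 CPM in the small against 0.509 and 0.662 in the large intestine, a 175-fold difference (log2 7.45). Pyy was 67.9 and 65.2 against 309 and 323 CPM (-2.25), Sct 99.6 and 97.5 against 18.5 and 20.8 (2.33) and Chgb 16.3 and 16.3 against 44.4 and 47.4 (-1.49). Cck was 11.2 and 9.04 against 3.44 and 4.22 CPM (1.40). In none of these did the sections of the tissues overlap.

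Sst and Gip varied more between sections. Sst was 48.1 and 71.9 CPM in the small and 16.2 and 14.0 in the large intestine (log2 1.99). Gip, with 42 and 8 UMIs in sections of the small and 1 and 0 in those of the large intestine, gave 6.36 (3.74 to 11.62). Chga was 15.9 and 19.4 against 27.3 and 30.5 CPM (-0.71). Gcg was 43.4 and 35.6 against 43.3 and 40.6 (-0.09) and Tac1 43.1 and 73.5 against 58.9 and 59.4 (-0.02), with overlapping sections for both. Thus 5 members were at least 2-fold higher in the small intestine, against 15.8% of 16239 genes, and 2 in the large intestine, against 14.6%, with medians of 0.69 over the members and -0.02 over all genes. The 8 Gip UMIs of section 2 of the small intestine lay in 4 spots.

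The members were spread over spots very differently. In section 1 of the small intestine 10 of 2094 spots held 50% of all Nts UMIs, with up to 356 in a spot, and in section 2 14 of 2571. Sst reached 50% in 24 and 10 spots and Pyy in 33 and 16. Chga needed 92 and 111 spots and no spot had more than 6 and 13 UMIs. In the large intestine Pyy was read in 1509 of 2094 and 1589 of 2179 spots, 72.1% and 72.9%.

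Spots with at least 2 UMIs of 7 enteric neuron genes (among them Prph and Tubb3) numbered 155 and 267 in the small and 182 and 185 in the large intestine. Tac1 and Sst were higher in them in all 4 sections. Tac1 was 262 against 24.9 CPM in other spots of section 1 of the small intestine and 390 against 28.1 in section 2 (log2 3.40 and 3.80), and 192 against 51.2 and 204 against 50.2 in the large intestine (1.91 and 2.02). Sst was 256 against 30.9 and 358 against 30.7 CPM in the small intestine (3.05 and 3.54) and 135 against 9.39 and 119 against 7.19 in the large intestine (3.84 and 4.05). These spots held 46.6% and 66.6% of Tac1 UMIs in the small intestine but 17.9% and 20.7% in the large intestine.

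Chgb was higher in neuron-list spots of the small intestine, 41.3 against 14.3 and 49.8 against 11.5 CPM (log2 1.53 and 2.12), and in the large intestine by 0.21 and 0.09, with intervals that include 0. Under the other spot limits section 2 of the large intestine gave 0.38 to 0.42 and section 1 -0.06 to 0.44. Chga was 1.08 and 0.95 in the small and 0.97 and 0.85 in the large intestine on the same log2 scale. The gut hormones proper were lower there in the small intestine, at -2.29 and -2.72 for Nts, -1.73 and -2.17 for Sct, -1.57 and -1.89 for Pyy and -0.71 and -1.58 for Gcg. In the large intestine Sct was -0.84 and -0.73 and Pyy -0.23 and -0.45. Counting members at least 2-fold higher in both sections gave 3 in the small intestine (Tac1, Sst and Chgb), where 18.6% of 13407 genes were, and 2 in the large intestine (Tac1 and Sst), where 12.7% of 14194 were. With 1 UMI of the list enough to pick a spot, Chgb was 0.85 and 1.07 in the small intestine and Tac1 0.97 and 1.01 in the large intestine. At that limit several of the lower hormones turned: Gcg was 0.27 in section 1 and Pyy 0.0090 in section 2 of the small intestine, and Pyy was 0.31 and 0.38 in the large intestine. The same spots held more muscle RNA, 27693 and 30909 CPM of the muscle list against 5309 and 6437 elsewhere in the small intestine and 8167 and 8153 against 1210 and 1133 in the large intestine. They held less epithelial RNA, 4364 against 11545 and 3672 against 11503 CPM of the epithelial list in the small and 9559 against 13218 and 10299 against 13614 in the large intestine. The part of either in these values was not tested.

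**Figure D5:**
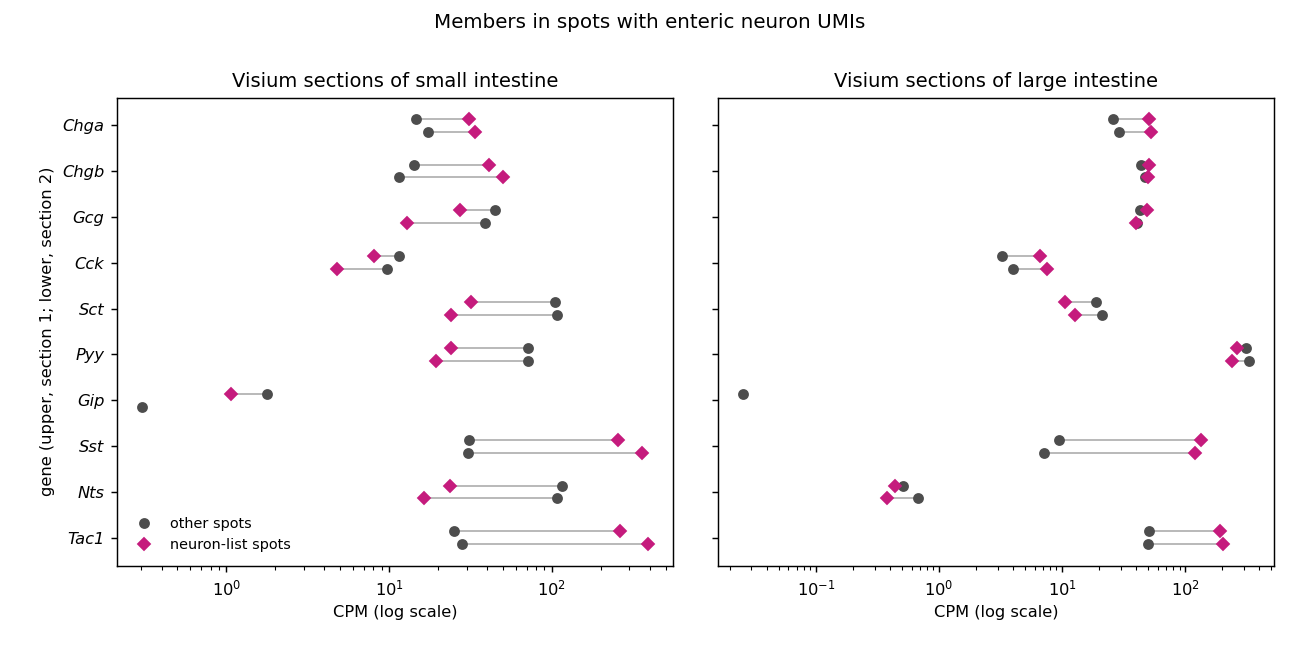
CPM on a log scale of each member in spots with at least 2 UMIs of the enteric neuron list (diamonds) and in all other spots (circles), with the first section above the second; a group with no UMI has no symbol. Tac1 and Sst lie far to the right in neuron-list spots of all 4 sections (Tac1 390 against 28.1 CPM in section 2 of the small intestine), and Nts, Sct and Pyy lie to the left in the small intestine.

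Some pairs of members were read in the same spots. Gcg in spots with a Pyy UMI was higher than in spots without by log2 2.63 and 2.32 in the small and 2.63 and 2.99 in the large intestine, and Pyy in spots with Gcg by 2.13 and 2.87, and 2.40 and 2.17. Nts in Pyy spots was 301 against 27.9 and 276 against 26.8 CPM in the small intestine (3.43 and 3.37). Tac1 in Chgb spots was 2.62 and 3.51 in the small intestine but -0.08 and 0.35 in the large intestine. Spots with a UMI of a gene were also deeper than those without, except for Sst in section 1 of the small and in both sections of the large intestine. For Chga in section 1 of the small intestine the medians were 13789.5 and 9619.5 UMIs, and the part of depth in these ratios was not tested.

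Endocrine spots could not be picked with the 18 markers, since Cpe and Aplp1 gave 52.9% to 76.6% of the marker UMIs and 1084 to 1508 spots passed. In spots picked with all 18, 3 members were at least 2-fold higher in both sections of the small intestine (Sst, Nts and Tac1), where 9.14% of 13157 genes were, and 6 in the large intestine (Chga, Chgb, Gcg, Cck, Pyy and Sst), where 6.22% of 13710 were. A panel of 10 of these markers, chosen after the data were seen, picked 46, 72, 168 and 174 spots. In these, Chgb was higher by log2 2.83 and 2.69 in the small and 1.94 and 2.09 in the large intestine, Pyy by 2.66 and 2.95, and 1.58 and 1.85, Gcg by 2.65 and 1.47, and 2.05 and 1.88, and Nts by 3.96 and 3.07 in the small intestine. Tac1 in the large intestine was 0.11 and 0.41, Sct was 0.07 and 1.43, and Sst 1.57 and 0.37. Nts there had 2 and 0 UMIs in the picked spots. At least 2-fold higher in both sections were 9 members in the small intestine, Gip being the exception, where 6.88% of 13658 genes were, and 4 in the large intestine (Chga, Chgb, Gcg and Pyy), where 1.21% of 14257 were.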

How the data were processed

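Single-cell and Visium libraries of mouse intestine and organoids were analysed from the count tables that the authors deposited, unnormalized UMI counts per gene and barcode, made with Cell Ranger 6.0.1 and spaceranger 1.2.1 per the file headers and on mm10 per the submitters' processing notes. The settings of each step are not given in the sources used here.

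Cells needed 500 genes and at most 20% mitochondrial UMIs. Doublets were called with scanpy's Scrublet at 0.8% per 1000 cells and removed. Cells were normalized to 10000 UMIs and clustered (2000 variable genes, 30 components, 15 neighbours, Leiden resolution 1) without the members, and clusters were named from 25 marker lists. Spots needed 500 UMIs. Python 3.11.15, scanpy 1.11.5, leidenalg 0.10.2, numpy 2.4.6, scipy 1.17.1 and pandas 2.3.3 were used. Levels are CPM of summed counts with exact Poisson intervals, shares have Clopper-Pearson intervals, ratios the exact interval of a pair of Poisson counts, all at 95%. UMIs are not independent of free RNA in the droplets, which the intervals ignore. At least 2-fold means that with 20 UMIs or more in the higher group. No test was made, since each single-cell group is 1 library and the Visium sections are technical duplicates. The ratio step was tested on simulated data.

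Named are the 10 members, at most 5 genes of each related list (those with the highest CPM in endocrine-like cells of tissue) and the 3 genes most correlated with a member. Members, lists and spot panels were chosen with earlier results of these data known. Alternatives were other cell filters, doublets kept, resolutions 0.5 and 2, members put back, a marker panel, other carrier limits, thinning, other scalings, leaving out top cells or sections, and other spot limits.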

Additional observations from a re-analysis of the deposited data

Results flagged for a closer look

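Cck had ratios of opposite sign in the tissues in spots with enteric neuron RNA. Against other spots its log2 ratio was -0.51 and -1.02 in the 2 sections of small intestine and 1.03 and 0.92 in the 2 sections of large intestine. These ratios rest on 15, 18, 15 and 20 Cck UMIs in the neuron-list spots, and the difference between the tissues was not tested. With 1 UMI of the list enough to pick a spot, the value in section 2 of the small intestine was 0.07. In section 1 the interval included 0 (-1.37 to 0.24), and the value was 0.24 with 1 UMI after thinning to 2000 UMIs.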

How the results depend on the processing

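No paired analysis was possible because no result comes from a test and the duplicate sections are technical. The number of endocrine-like cells moved from 25 to 106 in the large and from 25 to 45 in the small intestine. Members at least 2-fold higher in endocrine-like cells of the large intestine, 1 as reported, were 4 with the strict filter, 3 with doublets kept, 3 with members put back, 2 without cells over 50000 UMIs and 2 when CPM was averaged over cells. Those higher in the small intestine, 4 as reported, were 7 at resolution 2. The percent of cells with 2 or more hormones was 78.1 (at least 1 UMI) and 34.4 (1% of UMIs) in the small intestine, 10.4 (loose filter), 36 (strict filter) and 64 (at least 1 UMI) in the large intestine, and 81.8 (at least 1 UMI), 9.09 (1% of UMIs) and 72.7 (thinned to 2000 UMIs) in coculture. With 1 UMI of the neuron list, 1 member passed in the large intestine in place of 2. Members passing in endocrine-panel spots were 9 in place of 3 in the small intestine with the restricted panel and 1 in place of 6 in the large intestine after thinning. Of the lists, transcription factors higher in the small intestine, 8 as reported, were 5 with the strict filter and 13 at resolution 2. Granule genes higher in the small intestine, 2 as reported, were 1 with the strict filter, doublets kept, members put back or 4 markers required and 7 at resolution 2, and those in the large intestine, 0 as reported, were 1 in all but resolution 2. Serotonin genes, 1 each way, were 0 in the small intestine with the strict filter, and 3 and 0 at resolution 2. Sensors higher in the large intestine, 2 as reported, were 1 at resolution 2 and 3 with the strict filter, doublets kept or members put back. Receptors higher in the small intestine were 0 in place of 1 with the strict filter, doublets kept, resolution 0.5, members put back or 4 markers required.

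Among ratios of at least 2-fold, sign changes were seen for organoid Gip, 0.47 with the strict filter, organoid Pyy, 4.41 with doublets kept and 2.01 without the top cell, and organoid Nts, -1.67 without the top cell. In section 2 of the small intestine Cck (0.067) and Pyy (0.0090) did so in neuron-list spots at 1 UMI, and in section 1 Gip (-0.77) in panel spots after thinning. Smaller ratios also changed sign, among them the 5 of endocrine-like cells given no direction above, Chga in all kept cells, Gcg, Cck, Pyy and Sct in neuron-list spots of some sections and Chga and Gcg in panel spots. The restricted panel, the limit of 50000 UMIs, the restriction to cells with 4 markers and the alternatives for the lists were chosen after seeing the data. Of the other comparisons of a single-gene value with an alternative, several for each value, 447 moved and 913 did not. Ratios moved when they left the counting interval, or for ratios between Visium tissues a band set by the spread of duplicate sections. Counts of cells moved when they changed by more than 1.5 times. The causes were not tested. The organoid values are limited by their 5 and 22 endocrine cells. All single-cell values are limited by the single library of each group, and the Visium values by duplicates that are technical.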
